A study of Mus musculus with 4 samples.

Results

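Photoreceptors pass their signal on at ribbon synapses, and the genes described here encode proteins of that terminal: the ribbon and active zone proteins Ctbp2, Bsn, Pclo and Rims2, the calcium channel subunit Cacna1f with its partner Cabp4, the release factors Unc13b, Cplx3 and Cplx4, and the glutamate loader Slc17a7. These 10 genes were listed by name for their known role, and the rule uses no measured value, although the list was drawn up with earlier results of these data known. Of the 10, 9 had a row among the 22863 genes of the table. Cabp4 was not analysed here. Pclo had a pair of rows, a protein-coding one and one typed as a long intergenic RNA (lincRNA) under the same symbol, so the genes filled 10 rows, and all 10 passed the filter on low values that left 17784 genes for the test.

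The samples were posterior eyes (retina, retinal pigment epithelium or RPE, choroid and posterior sclera) of C3H/f+/+ mice, a melatonin-proficient strain free of the Pde6b mutation that makes the rods of other C3H mice degenerate and of the rd8 mutation. Both groups were collected 6 hours into the day phase, and the question was which transcripts differ between a day with light and the same clock time in darkness. Objective day mice had lived in the light cycle and spent 1 hour in the dark. Those of subjective day were kept dark for 18 hours beforehand, by the methods and other passages of the paper, while a passage on this comparison gives a longer time. Each group held 2 samples, and each sample pooled the 4 eyes of 2 mice, 1 of either sex. No transgene or drug was listed for either group, and no age was given for these mice in the sources used here. The RNA-seq values are taken, from the methods and the values themselves, to be read counts per gene that the authors adjusted for library size. They are called adjusted counts below, and they summed to between 33278400 and 35236800 per sample.

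The ribbon is a plate of protein that holds a store of glutamate-filled vesicles over the release sites of rods, cones and bipolar cells. In darkness photoreceptors are depolarised, calcium enters steadily through Cav1.4 channels under the ribbon and glutamate is released without pause, and light slows that release. Bipolar cells also use ribbons, and several of these proteins serve ordinary synapses of the inner retina as well, so a level measured in the whole posterior eye sums over these cells. In such bulk samples, fewer cells of a type and less RNA per cell cannot be told apart.

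Ctbp2 carries the ribbon's own protein. RIBEYE, the main building block of the ribbon, is made from an internal start of Ctbp2, and the transcript that codes for the long protein (988 codons) starts at position 133015248 of chromosome 7, inside the gene, whereas the co-repressor form (445 codons) starts at position 133123367. The windows from 250 bases before to 50 bases after a start, taken from RefSeq on GRCm38.p6, covered 7 of the listed genes with 8 windows. No window of Rims2, Cplx4 or Cabp4 was examined. The 3 windows that held any of the searched letters are printed, 5′ to 3′ on the strand of the gene and with the matches in capitals, because they include the start of the ribbon's own transcript and the starts that carry the letters bound by clock proteins. The letters searched on both strands were TAATCC (or GGATTA), the core bound by the photoreceptor factor CRX, TGCTGA (or TCAGCA), part of the site of the rod factor NRL, and CACGTG, the E-box bound by CLOCK and BMAL1.
Ctbp2 RIBEYE start, chr7:133015198-133015497, minus strand: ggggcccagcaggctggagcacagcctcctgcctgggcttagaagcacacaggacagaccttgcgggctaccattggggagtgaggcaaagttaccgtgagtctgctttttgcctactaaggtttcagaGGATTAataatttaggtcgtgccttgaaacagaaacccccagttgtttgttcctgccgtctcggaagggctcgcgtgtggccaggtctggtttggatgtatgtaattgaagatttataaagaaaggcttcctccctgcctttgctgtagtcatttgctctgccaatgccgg
Cplx3, chr9:57606232-57606531, minus strand: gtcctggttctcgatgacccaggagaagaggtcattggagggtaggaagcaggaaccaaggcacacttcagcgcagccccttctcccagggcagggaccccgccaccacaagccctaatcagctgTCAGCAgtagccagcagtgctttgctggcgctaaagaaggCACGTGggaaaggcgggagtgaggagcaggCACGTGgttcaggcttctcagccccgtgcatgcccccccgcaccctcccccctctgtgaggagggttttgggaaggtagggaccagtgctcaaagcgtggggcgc
Unc13b, chr4:43058703-43059002, plus strand: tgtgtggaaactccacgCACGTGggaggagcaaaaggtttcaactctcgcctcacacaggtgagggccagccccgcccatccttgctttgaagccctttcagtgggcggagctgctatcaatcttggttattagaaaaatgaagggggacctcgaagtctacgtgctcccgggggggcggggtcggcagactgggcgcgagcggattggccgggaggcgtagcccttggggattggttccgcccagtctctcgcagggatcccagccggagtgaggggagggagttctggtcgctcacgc

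The CRX core was found in 1 of the 8 windows, the RIBEYE start of Ctbp2, with its first base 121 bases before the start, and 7.06% of all 32851 windows of this length held it. The NRL core was found in 1 window, that of Cplx3, against 19.5% of all windows. The E-box was found in 2 windows, those of Cplx3 (2 copies) and Unc13b, against 7.15% of all windows. None of these matches overlapped another. A match of letters is a description of the window and no measurement of binding.

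The ribbon synapse genes drew many reads. The 9 protein-coding rows stood between the 96.1 and 99.9 percentile of mean adjusted count over the genes tested, a scale that is not corrected for length. Between the days they differed little: 8 of the 9 protein-coding rows had a log2 fold change above 0 (objective over subjective day), as did 9348 of all 17784 genes tested. When values were scaled to 7 rod markers, 4 of the 9 and 4471 of the 17784 were above 0. The median of the 9 was 0.09 and the range -0.13 to 0.27, where the median over all genes tested was 0.01. In limma's moderated test on log2(adjusted count + 1), with Benjamini-Hochberg adjustment over all genes, 1 of the 9 was called higher in objective day (adjusted p under 0.05) and none lower (2 of the 9 had an unadjusted p under 0.05, as did 4512 of all 17784). Over all genes tested, 1.06% were called higher and 7.45% lower, 8.51% in either direction. The Pclo lincRNA row was called lower. In 5 of the 9 protein-coding rows both objective day samples stood above both subjective day samples, in none below and in 4 the groups overlapped. Over all genes tested, 27.9% stood apart with objective day higher and 28.2% with objective day lower. The 95% intervals of the 9 differences reached from 0.787-fold to 1.39-fold.

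**Figure D1:**
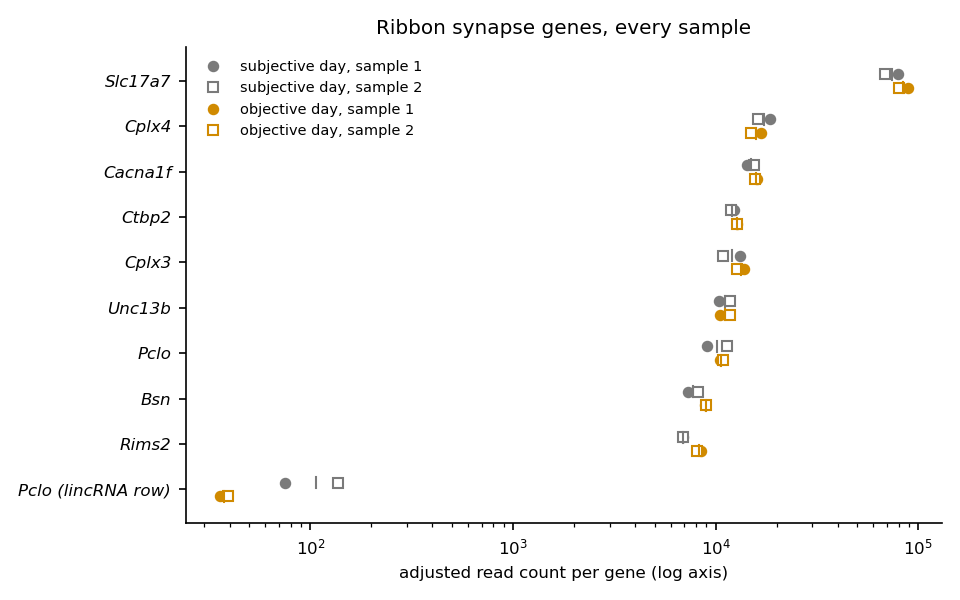
Adjusted read count of each ribbon synapse row (horizontal, log axis) in every sample, with subjective day in grey, objective day in orange, filled circles for sample 1, open squares for sample 2 and a vertical tick at the group mean. Slc17a7 stands at 68371 to 88703 and the other protein-coding rows between 6889.5 and 18501, and the lincRNA row of Pclo is the row far to the left.

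Rims2 was the protein-coding gene of the group that was higher in objective day. RIM2 is the RIM protein of photoreceptor active zones, where it favours calcium entry through Cav1.4. Its adjusted counts were 6905 and 6889.5 under subjective day and 8489 and 8120.1 under objective day, so the groups did not overlap and the difference was several times the spread within either group. The means were 6897 ± 10.9 and 8305 ± 261 (SD, n = 2 each), and the log2 fold change was 0.27 (SE 0.06, 95% interval 0.13 to 0.41, limma adjusted p = 0.0380), or 1.20-fold. The gene lies at chr15:39198261-39684372 on the plus strand of GRCm38. The call rested on each of 3 libraries: without subjective day sample 2 the adjusted p of Rims2 was 0.0654, without objective day sample 1 it was 0.314 and without objective day sample 2 it was 0.160, and over all alternatives it ran from 0.00226 to 0.701. With the values scaled to 7 rod marker genes, Rims2 stood at 0.13 on the log2 scale (adjusted p = 0.653), whereas without 1 sample it stood at 0.24 to 0.30.

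Its paralogue Rims1, the RIM gene of most conventional synapses, had lower values in objective day. Rims1 had 2876 and 2813 adjusted counts in subjective day, and values of 2489 and 2507 in objective day, a log2 difference of -0.19 (SE 0.06, limma adjusted p = 0.0945), which did not pass the test. Within each sample Rims2 was 2.40 and 2.45 times Rims1 in subjective day, and 3.41 and 3.24 times Rims1 in objective day, in adjusted counts without regard to length. This ratio needs no scaling between libraries, and its groups did not overlap, as in 11 of the 15 ratios computed between these genes and their paralogues or each other. The ratio was chosen after the values were seen, so no test of it is given.

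Bsn and Pclo encode Bassoon and Piccolo, giant scaffold proteins of the active zone: Bassoon anchors the photoreceptor ribbon to the membrane, and a short form of Piccolo is built into the ribbon. Bsn (chr9:108096022-108190384, minus strand) had 7279 and 8170 adjusted counts in the subjective day samples, against 8896 and 9018 in the objective day ones. Both objective day samples of Bsn were the higher ones, but its subjective day samples were further apart than its objective day samples. The log2 fold change of Bsn was 0.22 (SE 0.07, limma adjusted p = 0.119), which did not pass the test. Without subjective day sample 2, Bsn stood at 0.30 with an adjusted p of 0.0396, and without subjective day sample 1 it stood at 0.13 (adjusted p = 0.256). Over the alternatives the adjusted p of Bsn ran from 0.0225 to 0.903. Bsn is also the most GC-rich of the genes described, with 59.8% G and C in its longest transcript, and with the trend along GC content removed its log2 fold change was 0.09.

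Pclo (protein-coding row, chr5:14514918-14863459, plus strand) had 9052 and 11343 adjusted counts under subjective day and 10473 and 10841 under objective day. The subjective day samples of Pclo lay on both sides of the objective day ones. The log2 fold change of this row of Pclo was 0.07 (SE 0.10, limma adjusted p = 0.713), and it changed sign to -0.09 without subjective day sample 1. Exons of the antisense genes Gm26918 and Gm26954 overlap those of Pclo by 429 and 496 bases, and reads of such overlaps cannot be told apart without strand information.

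The lincRNA row under the symbol Pclo was called lower in objective day. It had 74.9 and 138 adjusted counts in subjective day, and values of 35.9 and 39.2 in objective day. Both objective day values of this Pclo row were the lower ones, although its subjective day samples differed from each other by more than the objective day samples did. Its log2 fold change was -1.41 (SE 0.30, limma adjusted p = 0.0305), 0.376-fold on the log2(value + 1) scale. Set as a ratio to the protein-coding row of the same sample, the Pclo lincRNA row came to 0.827% and 1.21% under subjective day, against 0.343% and 0.362% under objective day. Its identifier, ENSMUSG00000098239, was not in the gene annotation used here, so no position, length or GC content is given. Without subjective day sample 2 its adjusted p was 0.0729, without objective day sample 1 it was 0.0658 and without objective day sample 2 it was 0.0503, and over all alternatives it ran from 0.00197 to 0.163.

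Ctbp2 (chr7:132987563-133124354, minus strand) had 12341 and 11875 adjusted counts in the subjective day samples, against 12787 and 12814 in the objective day ones. Objective day was higher in both samples of Ctbp2, by little more than the spread within subjective day. The log2 fold change of Ctbp2 was 0.08 (SE 0.06, limma adjusted p = 0.473), and its 95% interval ran from -0.07 to 0.23. Leaving out 1 sample gave 0.05 to 0.11. The row counts reads of every Ctbp2 transcript together, so RIBEYE and the co-repressor cannot be told apart in it, and 314 exonic bases on the same strand are shared with Fgfr2. The sign of Ctbp2 turned when the values were scaled to the rod markers (-0.06) and when the GC trend was removed (-0.02).

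Cacna1f encodes the pore of Cav1.4, the channel that carries calcium into photoreceptor terminals and whose loss causes night blindness. Cacna1f (chrX:7607083-7635196, plus strand) had 14294 and 15481 adjusted counts under subjective day and 15951 and 15712 under objective day. The groups of Cacna1f did not overlap, but objective day sample 2 was closer to subjective day sample 2 than the subjective day samples were to each other. The log2 fold change of Cacna1f was 0.09 (SE 0.07, 95% interval -0.08 to 0.26, limma adjusted p = 0.474), and under scaling to the rod markers it turned to -0.05. Without subjective day sample 1 the value of Cacna1f was 0.03, and without subjective day sample 2 it was 0.15.

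The channel's relatives were far below it. Per kilobase of exon, Cacna1f stood 8.89 to 10.1 times above Cacna1a (the pore of P/Q-type channels), 10.4 to 12.1 times above Cacna1d (Cav1.3) and 66.6 to 78.3 times above Cacna1c (Cav1.2, the channel of heart and smooth muscle) over the 4 samples. Cacna1a itself had 1769 and 1949 adjusted counts in subjective day, and values of 2193 and 2219 in objective day, a log2 fold change of 0.25 (limma adjusted p = 0.0712). Of the calmodulin-like genes related to Cabp4, Cabp5, a gene of bipolar cells, was called lower in objective day. Cabp5 had 4252 and 4004.5 adjusted counts in the subjective day samples, against 3327 and 3343.5 in the objective day ones (log2 fold change -0.31, SE 0.06, limma adjusted p = 0.0242). Once the GC trend was removed, Cabp5 stood at -0.20 and did not pass (adjusted p = 0.228). Cabp1, found in inner retinal neurons, had 2579 and 2327 adjusted counts under subjective day and 2953 and 2906.5 under objective day, a log2 fold change of 0.26 that did not pass the test (limma adjusted p = 0.0643). Without either objective day sample, none of the paralogues was called.

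Unc13b encodes Munc13-2, a factor that readies docked vesicles for fusion and whose ubiquitous form is the Munc13 of photoreceptors. Unc13b (chr4:43058953-43264871, plus strand) had 10453 and 11780 adjusted counts in subjective day, and values of 10478 and 11821 in objective day. The pairs of values nearly coincide, and the spread within each group of Unc13b exceeded the difference between the means. Its log2 fold change was 0.0042 (SE 0.09, limma adjusted p = 0.984), and the 95% interval of -0.20 to 0.21 leaves changes of that size undetected. The sign of Unc13b turned without subjective day sample 1 and without objective day sample 2 (-0.08 each) and under scaling to the rod markers (-0.14). Per kilobase, Unc13b stood 1.20 to 1.42 times above Unc13a (Munc13-1, the form of most brain synapses) and 0.999 to 1.28 times its paralogue Unc13c. By the length of the longest transcript, Unc13b stood 1.5 to 1.78 times above Unc13a and 1.54 to 1.98 times above Unc13c. Both lengths take in a transcript of 14754 bases. Other coding forms of Unc13b are shorter, such as Unc13b-201 (6354 bases), so these ratios depend on the length used.

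Cplx3 and Cplx4 encode the complexins of retinal ribbon synapses, small SNARE-binding proteins that restrain spontaneous release, and Cplx3 is also made by amacrine cells. Cplx3 (chr9:57599992-57606281, minus strand) had 13203 and 10877 adjusted counts in the subjective day samples, against 13868 and 12816 in the objective day ones. Cplx4 (chr18:65955722-65970237, minus strand) had 18501 and 16151 adjusted counts under subjective day and 16786 and 14936 under objective day. In both genes the groups overlapped, with sample 1 above sample 2 in each group.

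The log2 fold change of Cplx3 was 0.15 (SE 0.10, limma adjusted p = 0.383) and that of Cplx4 was -0.13 (SE 0.09, adjusted p = 0.444), which made Cplx4 the one protein-coding gene of the group with a negative value. The value of Cplx4 was -0.03 without subjective day sample 1, -0.22 without subjective day sample 2, -0.21 without objective day sample 1 and -0.04 without objective day sample 2. Without subjective day sample 1, Cplx3 stood at 0.29 with an adjusted p of 0.0456, and without subjective day sample 2 it stood at 0.014 (adjusted p = 0.951). Without objective day sample 1 it stood at 0.097, and over the alternatives the adjusted p of Cplx3 ran from 0.0456 to 0.978. Set against each other within a sample, Cplx3 was 0.714 and 0.673 times Cplx4 in subjective day and 0.826 and 0.858 times Cplx4 in objective day, in adjusted counts. The groups of this Cplx3 to Cplx4 ratio, also one of those 11, did not overlap, a log2 difference of 0.28. With the GC trend removed, Cplx3 (52.4% GC) and Cplx4 (44.8% GC) stood closer together, at log2 fold changes of 0.077 and 0.010. Per kilobase, Cplx4 stood 3.37 to 4.38 times and Cplx3 1.88 to 1.96 times above Cplx1, the complexin of conventional synapses.

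Slc17a7 encodes VGLUT1, which fills synaptic vesicles with glutamate in photoreceptors and bipolar cells, and it was the most abundant of the genes. Slc17a7 (chr7:45163949-45176142, plus strand) had 79583 and 68371 adjusted counts in subjective day, and values of 88703 and 79997 in objective day. The lower objective day sample of Slc17a7 lay just above the higher subjective day sample, and the distance was small beside the spread within either group. Its log2 fold change was 0.19 (SE 0.12, limma adjusted p = 0.371), with a 95% interval of -0.09 to 0.48, and the value of Slc17a7 was 0.30 without subjective day sample 1, 0.08 without subjective day sample 2 and 0.12 without objective day sample 1. Per kilobase, Slc17a7 stood 35.5 to 47.4 times above Slc17a6 (VGLUT2, used by ganglion cells) and 134 to 203 times above Slc17a8 (VGLUT3, used by a class of amacrine cells) over the 4 samples, and 221 to 335 times above Slc17a8 by the length of the longest transcript.

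**Figure D2:**
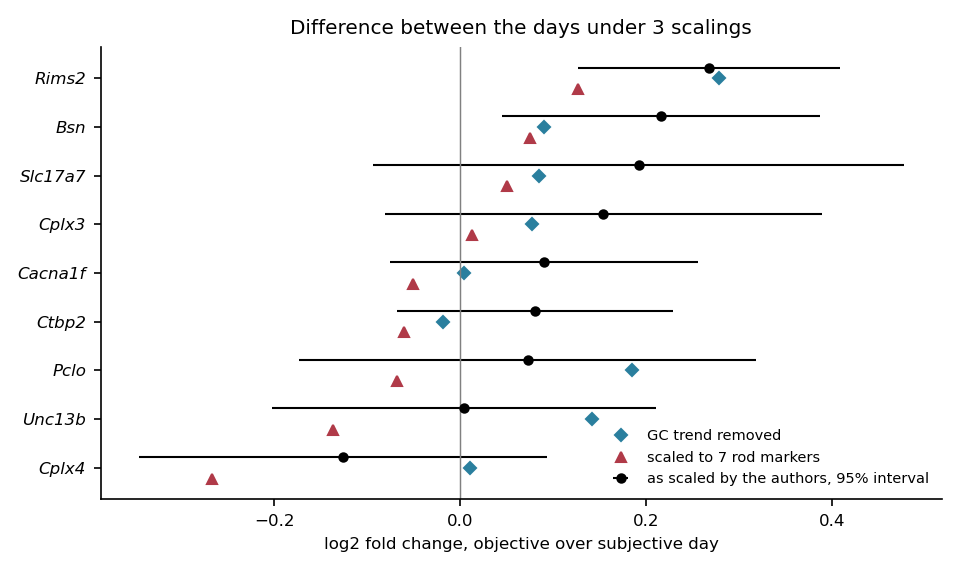
Log2 fold change of objective over subjective day (horizontal) for the 9 protein-coding genes: black circles with 95% intervals on the values as scaled by the authors, blue diamonds after removal of the trend along GC content, red triangles after scaling to 7 rod markers. The black interval of Rims2 (0.13 to 0.41) and that of Bsn lie to the right of 0, and every red triangle lies left of its black circle.

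Counted per kilobase of exon, which allows genes to be compared with each other, the order of the mean levels over the 4 samples was Slc17a7 (14682 adjusted counts per kb), Cplx4 (8549), Cplx3 (4298), Ctbp2 (2002), Cacna1f (1690), Rims2 (732), Bsn (523), Unc13b (489) and Pclo (464). The vesicle loader and the complexins thus led, and the large scaffolds Bsn and Pclo stood among the last. Each step down to Bsn was clear of the spread over samples, while Bsn, Unc13b and Pclo could not be ordered: Bsn exceeded Unc13b in 2 of 4 samples, and Unc13b exceeded Pclo in 3 of 4. These lengths are those of all annotated exons together. By the length of the longest transcript the order down to Rims2 was the same, but Unc13b, at 755 adjusted counts per kb, stood above Bsn (523) and Pclo (519) in all 4 samples. The longest transcript of Unc13b measures 14754 bases, while Unc13b-201, which codes for 1590 codons, measures 6354 bases. The place of Unc13b in this order thus depends on the length used.

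**Figure D3:**
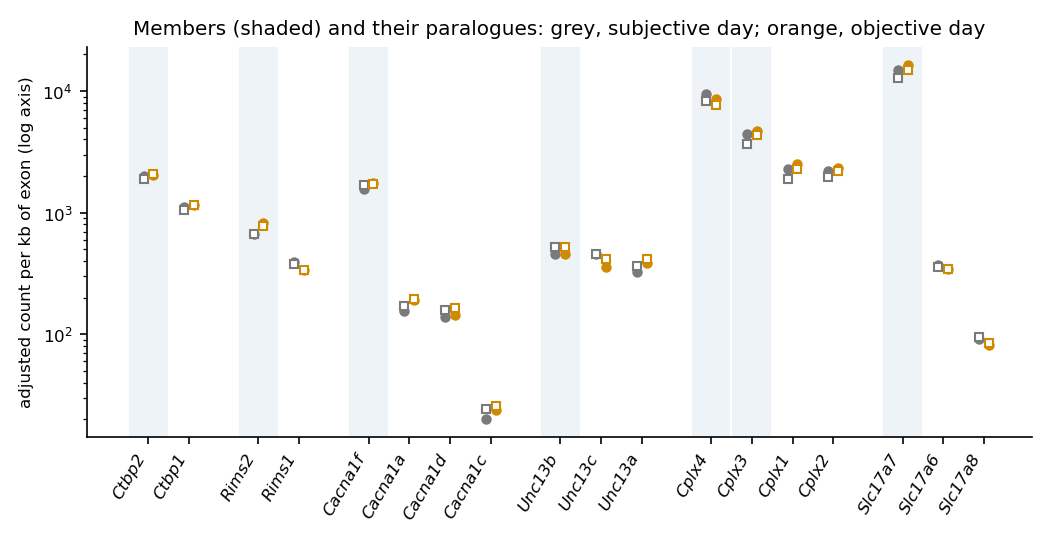
Adjusted counts per kilobase of exon (vertical, log axis) of the genes described (shaded) and of their paralogues in each sample, with subjective day in grey, objective day in orange, filled circles for sample 1 and open squares for sample 2. Cacna1f and Slc17a7 stand far above their relatives, whereas Unc13b, Unc13c and Unc13a lie close together.

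How samples of the same group differed from each other went with the length of the transcript. In subjective day, sample 2 exceeded sample 1 by 0.33 on the log2 scale for Pclo, 0.17 for Unc13b and 0.17 for Bsn, whose longest transcripts measure 20.1, 14.8 and 15.9 kb. For the short transcripts of Cplx4 (1.81 kb), Cplx3 (2.86 kb) and Slc17a7 (3.08 kb) the same difference was -0.20, -0.28 and -0.22. In objective day Unc13b stood at 0.17, Pclo at 0.05 and Bsn at 0.02, and Cplx4, Cplx3 and Slc17a7 at -0.17, -0.11 and -0.15. Unc13b is long here by its longest transcript, while its coding form Unc13b-201 measures 6354 bases.

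Over the 9 genes the rank correlation (Spearman) of longest transcript length with this within-group difference was 0.933 in subjective day and 0.883 in objective day. It was not computed with the shorter forms of Unc13b. These are correlations across genes that share the same pairs of libraries, and they are given as a description. Over the 17536 genes tested with a known length, the values were 0.168 and -0.0055, and over the 1269 of them with a mean adjusted count of at least 5000 they were 0.607 and 0.337. The overlap of the groups in Pclo, Unc13b, Cplx3 and Cplx4 goes with these within-group differences, and what part they have in the results was not tested.

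**Figure D4:**
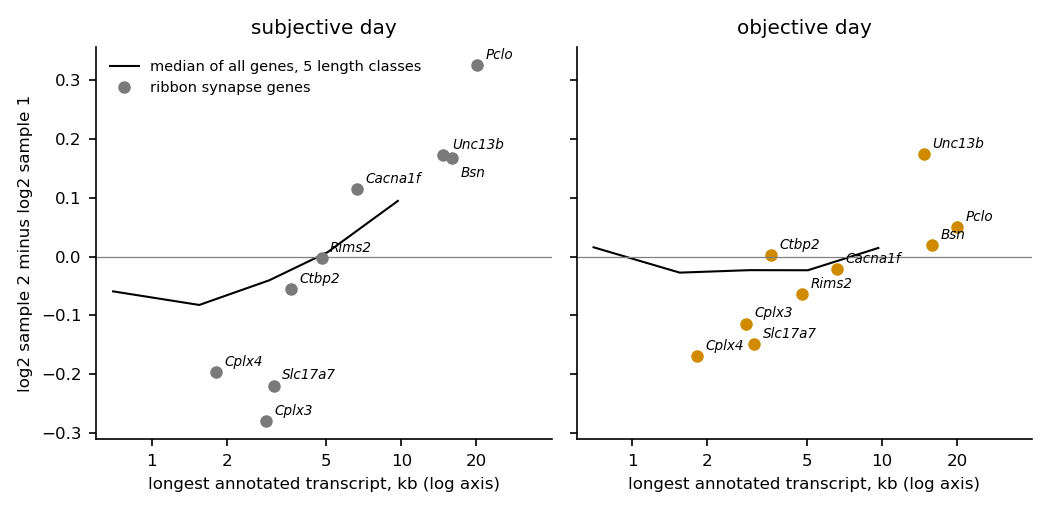
Log2 difference of sample 2 and sample 1 of the same group (vertical) against the length of the longest annotated transcript in kb (horizontal, log axis), for subjective day at left and objective day at right, with the black line joining the medians of all genes in 5 length classes. Pclo at 0.33 and Cplx3 at -0.28 mark the ends in subjective day, and the 3 shortest genes lie below 0 in both panels.

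Beyond the listed genes, 23 other genes known from photoreceptor terminals were measured and 23 were tested. None was called higher in objective day and 1 was called lower, beside 1.06% and 7.45% of all genes tested. The directions hung on the processing: 2 were called higher and 1 lower with equal totals. With the replicate block 5 were called higher and 3 lower, and with the GC trend removed as well, 5 higher and 0 lower. The median log2 fold change of the 23 was 0.09, and 15 of 23 values were above 0 (9348 of 17784 over all genes). The groups stood apart with objective day higher in 10 of the 23 genes (27.9% of all genes) and lower in 4 (28.2% of all genes). By role, the median was 0.16 for the 2 calcium channel subunits, 0.0007 for the 5 ribbon and active zone genes, -0.02 for the 6 SNARE genes and their partners, 0.07 for the 4 vesicle genes and 0.12 for the 6 scaffold and adhesion genes.

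The gene called lower was Dmd, whose short dystrophin products sit in the photoreceptor terminal opposite bipolar cell dendrites. The row counts reads of every Dmd transcript from all cells of the posterior eye, so those of photoreceptors cannot be told apart in it. Dmd had 7037 and 7735 adjusted counts in the subjective day samples, against 5763 and 5826.5 in the objective day ones, 0.785-fold (log2 -0.35, SE 0.07, limma adjusted p = 0.0226). Its longest transcript has a GC content of 41.5%, and Dmd stood at -0.03 on the log2 scale once the GC trend was removed (adjusted p = 0.881). Without either objective day sample, none of the 23 genes was called.

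Among the other terminal genes that did not pass was Cacnb2, which encodes the beta subunit that brings Cav1.4 to the membrane. Cacnb2 had 7403 and 7008 adjusted counts in subjective day, and values of 8488 and 8293 in objective day (log2 fold change 0.22, SE 0.06, limma adjusted p = 0.0750). The groups of Cacnb2 did not overlap. The longest transcript of Cacnb2 has a GC content of 39.0%, below the lowest decile of the genes tested (41.4%). Cacnb2 stood at 0.71 on the log2 scale once the GC trend was removed (limma adjusted p = 0.0153), against 0.22 before. The larger value thus depends on the correction. Of the 14 paralogues of the listed genes, 13 had a row, with a median log2 fold change of 0.09, Cabp5 called lower and none called higher, where 7.45% of all genes were called lower and 1.06% higher. Rims1 was counted in both lists.

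**Figure D5:**
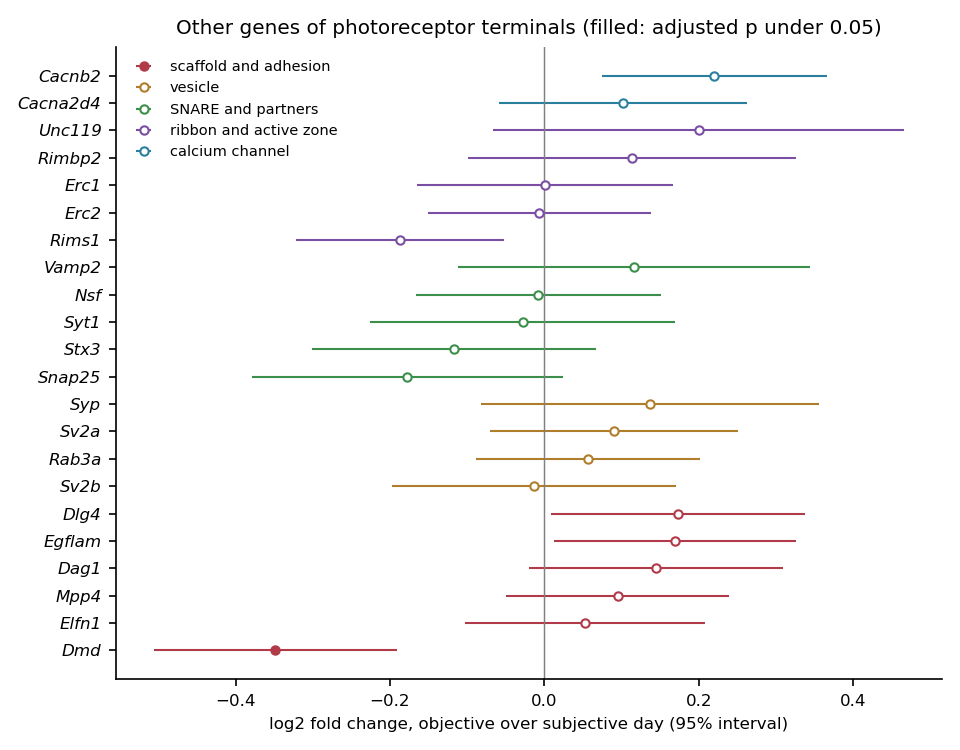
Log2 fold change of objective over subjective day with its 95% interval (horizontal) for 22 of the 23 other genes of photoreceptor terminals, coloured by role and filled where the adjusted p was under 0.05. Dmd at -0.35 is the filled point, Cacnb2 at 0.22 lies farthest to the right, and most of the others lie within 0.2 of 0.

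Markers of other cells and the GC content of genes were compared between the groups as well. Rods, whose terminals hold most of these proteins, had a median log2 fold change of 0.11 over 7 marker genes, which ranged from -0.18 to 0.51, none called. The sum of the 7 rod markers was 2021430 to 2296450 in subjective day and 2263340 to 2538280 in objective day, so the groups overlapped. Scaling to these 7 genes moved the median of all genes from 0.01 to -0.13 and that of the 9 protein-coding rows to -0.05, with 4 of 9 above 0 (4471 of all 17784) and none called. When the rod marker with the largest difference was left out of the scaling, 6 of 9 were above 0 (6727 of all 17784), Ctbp2 stood at 0.0010 and Cacna1f at 0.010, Pclo stood at -0.0069, and none of the 9 was called. Cone markers had a median of 0.11 (none of 6 called) and bipolar markers 0.10 (1 of 7 lower, Cabp5), amacrine and horizontal markers -0.02 (none of 6) and ganglion markers 0.02 (none of 5).

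Of 4 keratins listed as cornea epithelium markers, Krt12, the one most particular to the cornea, stood at 3.99 and 7.67 under subjective day and 1.78 and 12.5 under objective day, too low to be tested. The other 3, keratins of basal epithelium in general, were called lower with a median of -1.44, among them Krt15 (-1.46) and Krt5 (-1.44), and the list summed to 9809 and 10217 under subjective day and to 2751 and 5076 under objective day. Blood markers had a median of 0.55 with 2 of 3 called higher, Hba-a1 (0.67) among them, and Alas2 (0.55) was not called. Lens markers summed to 37280 and 4790 in subjective day, and to 43776 and 11248 under objective day, more in sample 1 of each group, with none of 4 called. Müller glia markers had a median of -0.20 (2 of 4 lower), RPE markers -0.09 (1 of 4 lower) and muscle markers -0.02 (none of 4), and no list was at 0. Their part in the values of the ribbon synapse genes was not tested.

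GC content moved with the difference between the days. Over 17536 genes the rank correlation (Spearman) of log2 fold change with GC content was 0.583, and the median log2 fold change ran from -0.26 for genes with up to 45% GC to 0.13 for genes above 55%. By their longest transcripts, the protein-coding rows span 44.8% (Cplx4 and Unc13b) to 59.8% (Bsn). The shorter Unc13b-201 has 50.6%, and the trend was removed with the value of the longest transcript. With a smooth trend along GC removed from each sample, 1.27% of 17536 genes were called in either direction and none of the 9 was (1 had an unadjusted p under 0.05, as did 2359 of the 17536). The median of the 9 was then 0.08, with 8 of 9 values above 0 (9667 of 17536 over all genes). Rims2, at 48.9% GC, had a log2 fold change of 0.28 with an adjusted p of 0.106, while Unc13b moved to 0.14 and Pclo to 0.18. The numbers of calls over all genes also hung on single libraries, with 664 without objective day sample 2, 736 without objective day sample 1 and 2557 without subjective day sample 1, against 1514 with all 4 samples.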

How the data were processed

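RNA from posterior eyes was sequenced on 1 lane of a HiSeq instrument. According to the methods and the submitters' processing notes, reads were called with CASAVA 1.8, aligned with TopHat2 2.0.9 and Bowtie2 2.1.0, counted per Ensembl gene with HTSeq and adjusted with edgeR. The deposited signal values carry decimals and are inferred, from the methods and the values, to be read counts adjusted for library size by the authors; whole reads could not be recovered, so the counts behind a value, and with them any counting error, are unknown. The deposited table also holds the authors' comparison as log2 fold changes and p-values, which were not used.

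A gene was kept if 2 or more samples reached a value of 10, and log2(value + 1) was fitted with limma 3.58.1 (R 4.3.3; trend, no block) for objective against subjective day, and p-values were adjusted over all genes tested (threshold 0.05). The design assumed counts or adjusted values, and the test for adjusted values was taken. The fit was tested on simulated data. Loci, exon lengths, overlaps and the GC content of the longest transcript came from GENCODE on GRCm38, and start windows from RefSeq. The GC alternative subtracted a loess curve (span 0.3) from each sample. Alternatives were other scalings, filters, pseudocounts, a single variance prior, a replicate block, removal of GC and length trends and leaving out each sample. The genes and all lists were chosen with earlier results of these data known. Named outside the listed genes were those called, the 2 largest not called in each list, a rod reference gene and up to 2 markers of lists with a median beyond 0.3. Of these, 2 genes are not reported here. Rims1, the ratios to paralogues and the description by transcript length were added after the values were seen.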

Additional observations from a re-analysis of the deposited data

How the results depend on the processing

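With all 4 samples, 2 of the 10 rows of the ribbon synapse genes were called, 1 of the 23 other terminal genes, 1 of the 13 paralogues and 1514 of all genes (189 higher, 1325 lower). With a mean of at least 100, and wherever the GC or length trend was removed, the Pclo lincRNA row was not tested. Only 9 ribbon synapse rows were tested there. For the ribbon synapse rows the number was 1 with values scaled to the rod markers, 1 with a mean of at least 100, 0 with a single variance prior, 0 with the GC trend removed and 0 to 3 without 1 sample. For the other terminal genes it was 3 with equal totals, 0 with a single variance prior, 3 with the length trend removed and 0 to 3 without 1 sample. For the paralogues it was 3 with equal totals, 0 with a single variance prior, 0 with the GC trend removed, 4 with the length trend removed and 0 to 3 without 1 sample. Over all genes it was 0 with a single variance prior (3586 with an unadjusted p under 0.05), 223 with the GC trend removed and 664 to 2557 without 1 sample; equal totals gave 612 higher and 1202 lower, and scaling to the rod markers 33 higher and 1499 lower.

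Samples of both groups carry the numbers 1 and 2 without a stated meaning, and the within-group differences of the groups correlated at 0.319 over genes. With the replicate block, 3 ribbon synapse rows (2 higher, 1 lower; Bsn had an adjusted p of 0.0225), 8 other terminal genes, 7 paralogues and 3613 of all genes were called. With the GC trend removed and the replicate block, the numbers were 1, 5, 2 and 1583. Removing the GC trend and scaling to the rod markers together, an alternative chosen after seeing the data, gave 0 ribbon synapse rows, 1 other terminal gene, 0 paralogues and 242 of all genes. Scaling to the rod markers without the one with the largest difference, also chosen after seeing the data, gave 1 ribbon synapse row, 1 other terminal gene, 0 paralogues and 1121 of all genes (42 higher, 1079 lower), with Rims2 at 0.19, Pclo at -0.0069 and Unc13b at -0.075.

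Signs turned as follows on the log2 scale. Scaled to the rod markers, Ctbp2 was at -0.060, Pclo at -0.068, Cacna1f at -0.051 and Unc13b at -0.14. With the GC trend removed, with or without the replicate block, Ctbp2 was at -0.019 and Cplx4 at 0.010. With both the GC trend removed and scaling to the rod markers, Bsn was at -0.051, Slc17a7 at -0.057, Cplx3 at -0.064, Cacna1f at -0.14 and Ctbp2 at -0.16. Leaving out 1 sample gave -0.090 to 0.24 for Pclo and -0.083 to 0.091 for Unc13b. Rims2, at 0.27 with all samples, lost its call with a single variance prior (0.27, adjusted p = 0.180), with the GC trend removed (0.28), in 3 of 4 fits without 1 sample (0.24 to 0.30 over all 4) and, at a smaller value, with the rod scaling (0.13), and Bsn gained one with the length trend removed (adjusted p = 0.0263). The other pseudocounts, no filter on low values and the median of ratios kept the direction and the call of every ribbon synapse row. The cause of these changes was not tested. With 2 samples a group and no counts behind the values, no depth per gene can be stated, and the 95% intervals of the 9 protein-coding rows, which reach from 0.787-fold to 1.39-fold, show what the data leave undecided.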
